A study of Mus musculus with 12 samples.

Results

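Angiopoietins, vascular endothelial growth factors (VEGF) with their receptors, and the tip-cell genes Esm1 and Apln were followed in mouse carotid arteries 1 day after partial ligation. The members were all probes that the platform annotation assigns to Angpt1, Angpt2, Esm1, Vegfa, Pgf, Kdr, Flt1, Nrp1 or Apln. The rule found 18 probes of 45281 on the array, for 9 genes of the 19057 that have a probe with 1 gene symbol. RNA from ligated left common carotid arteries (LCA) and untouched right ones (RCA) of C57Bl/6J mice was measured on 12 one-colour Illumina arrays. The 4 groups, of 3 arrays each, were LCA and RCA of mice labelled FibVKO, which lack fibulin-5 (KO), and LCA and RCA of wild-type (WT) mice. Partial ligation brings disturbed flow to the left artery, and the comparisons set arteries without fibulin-5, a protein of the elastic fibres, against WT arteries on each side. The labels give the mice no age or sex, do not name the deleted exons or the cells that lost the gene, and do not say whether the whole artery wall was extracted or whether arteries were pooled. They number the arrays of a group from 1 to 3 but do not say that a number stands for 1 mouse, so p-values measure only the spread between these samples, which may be technical.

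Sprouting vessels are led by tip cells, endothelial cells that extend towards VEGF, while the cells behind them form the stalk and are kept out of the tip state by Notch signalling. Vegfa signals mainly through the receptor Kdr, Flt1 binds Vegfa and its relative Pgf and limits the Vegfa signal, and Nrp1 is a co-receptor for VEGF and for class 3 semaphorins. Angpt1 and Angpt2 are ligands of the endothelial receptor Tek (Tie2): Angpt1, made by the cells around the endothelium, keeps the vessel quiet, and Angpt2, made by endothelial cells themselves, can oppose it. Esm1 (endocan), a secreted proteoglycan, and Apln, the peptide ligand of Aplnr, are known for high expression in tip cells.

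Intensities are linear and were normalized by the authors so that all arrays have nearly the same distribution, with a lowest value of 72.4 and array medians from 93.5 to 93.6. A background guide was taken on each array as the 95th percentile of 1501 probes for olfactory and vomeronasal receptors, which are mostly expressed outside arteries. It lay between 95.7 and 126. A probe above it on none of a group's arrays is called at background there, and a fold against such a group is a lower bound, the brighter group's mean over the guide or the dim probe's own value, whichever is higher. Levels are compared between groups within a probe, not between probes. The array WT LCA replicate 3 stood apart: its median correlation with the others was 0.678, against up to 0.859, its guide was the one at 126, and 11.7% of its probes exceeded the guide, against up to 41.5% on KO LCA replicate 3. The only Fbln5 probe lay between 80.6 and 97.4 on the 12 arrays, above the guide on none, so it checks nothing about the knockout.

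Of the 18 member probes, 2 (Nrp1 probes 1 and 3) exceeded the guide on all 12 arrays, and 5 probes of 4 genes (Angpt2 probe 1, Esm1, Vegfa probe 1 and the same Nrp1 probes) did so on all arrays of at least 1 group. With the 99th percentile of the receptor probes as the guide, the same 5 probes met that rule. Another 5 member probes were above the guide on no array, and 37.4% of all probes on the array share that. On WT LCA replicate 3 the guide was 126, so calls there are not directly comparable with those on the other arrays. Tested were the 32606 probes that reached the median of the array on 3 or more arrays, 15 of them members. Probe 2 of Angpt1, probe 2 of Kdr and probe 2 of Flt1 were not kept and are given by their values alone. The SD over n = 3 arrays is given with each mean, and the SE with each difference, which is in log2 units.

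Promoters of 7 of the 9 genes, all but Angpt1 and Angpt2, are in RefSeq's table for GRCm38.p6, from 250 bases before to 50 after the gene's start. Those of Esm1, Nrp1 and Vegfa are shown because these genes had a probe above the guide on all arrays of a group. Angpt2 met that rule too, but no promoter in the table was matched to it. Capitals mark matches, on either strand, to GCGTG, a core of the hypoxia response element, or to CACCC, the core of Kruppel-like factor sites. The Esm1 promoter is at chr13:113209409-113209708, plus strand, that of Nrp1 at chr8:128358823-128359122, plus strand, and the first of 2 Vegfa promoters in the table at chr17:46032328-46032627, minus strand.
Esm1: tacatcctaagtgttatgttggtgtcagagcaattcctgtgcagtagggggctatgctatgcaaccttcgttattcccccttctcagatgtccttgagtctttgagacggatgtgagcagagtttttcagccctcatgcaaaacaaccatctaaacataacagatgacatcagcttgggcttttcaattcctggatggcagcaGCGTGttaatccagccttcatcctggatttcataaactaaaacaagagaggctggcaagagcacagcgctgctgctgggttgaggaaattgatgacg
Nrp1: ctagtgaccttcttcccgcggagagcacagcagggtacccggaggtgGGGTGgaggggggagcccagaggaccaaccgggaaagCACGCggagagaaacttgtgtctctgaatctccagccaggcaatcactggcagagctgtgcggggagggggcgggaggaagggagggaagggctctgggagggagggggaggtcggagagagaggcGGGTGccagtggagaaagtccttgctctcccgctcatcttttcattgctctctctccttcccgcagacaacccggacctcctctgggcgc
Vegfa: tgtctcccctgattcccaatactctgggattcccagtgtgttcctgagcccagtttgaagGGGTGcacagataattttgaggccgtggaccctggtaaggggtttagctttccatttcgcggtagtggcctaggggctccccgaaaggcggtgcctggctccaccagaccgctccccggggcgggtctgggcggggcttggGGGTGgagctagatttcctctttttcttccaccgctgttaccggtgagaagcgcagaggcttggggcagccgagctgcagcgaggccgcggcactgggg
Esm1 had 1 GCGTG match, whose first base lies at position -47 from the start, and none of the other motifs searched. Nrp1 had GCGTG at -166 and CACCC at -203 and -40, and Vegfa had CACCC at -190 and -49, none of them overlapping another. The second Vegfa promoter in the table, not printed, had GCGTG at -218, ACGTG at -211 and CACCC at -49. Such matches are common: of 32851 promoters of the same length, 32.4% hold GCGTG and 57.5% hold CACCC. The other motifs searched were ACGTG, held by 19.6%, the AP-1 motif TGANTCA, held by 7.81%, and the forkhead motif GTAAACA, held by 3.65%, and the 3 printed promoters had no match to them. GC content was 46.3% for Esm1, 64% for Nrp1 and 62% for Vegfa. A match describes the letters in this window and is not evidence of binding.

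Esm1, measured by 1 probe, was highest in the ligated arteries of KO mice. Its intensities were 291, 131 and 151 in KO LCA, 97.8, 101 and 117 in KO RCA, 87.4, 85.6 and 92.7 in WT LCA, and 83.6, 85.8 and 90.9 in WT RCA. All 3 KO LCA arrays exceeded every other array, and all 3 KO RCA arrays exceeded all 6 WT arrays. Esm1 averaged 191 ± 87.1 in KO LCA, 105 ± 10.5 in KO RCA, 88.5 ± 3.70 in WT LCA and 86.8 ± 3.71 in WT RCA (SD, n = 3 each). It was above the guide on 3 arrays of KO LCA and 2 of KO RCA, and at background in both WT groups.

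The Esm1 difference between genotypes in LCA, KO minus WT, was 1.02 ± 0.24 (SE), which is at least 1.65-fold against the guide, with adjusted p = 0.317 in limma. By p it ranked at 174 of the 32606 probes. In RCA the difference was 0.27 ± 0.24, at least 1.04-fold, with adjusted p = 1.00. Ligation, LCA minus RCA, gave 0.77 ± 0.24 in KO mice (adjusted p = 0.632) and 0.03 ± 0.24 in WT mice (adjusted p = 0.979). The interaction, the ligation difference in KO minus that in WT, was 0.74 ± 0.34 with adjusted p = 0.921, so a difference between the genotypes in the response to ligation did not pass. KO LCA replicate 1, the array at 291, carried much of these values. Without it the genotype difference in LCA was 0.67 (adjusted p = 0.153) and the ligation difference in KO was 0.42 (adjusted p = 0.883). Over both sides the genotype difference was 0.65 ± 0.17 (adjusted p = 0.329), and 0.47 without that array (adjusted p = 0.0702). Leaving out WT LCA replicate 3 gave 1.05 for the genotype difference in LCA. In bulk RNA, more cells of a type and more RNA per cell cannot be told apart for this gene or any below.

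**Figure D1:**
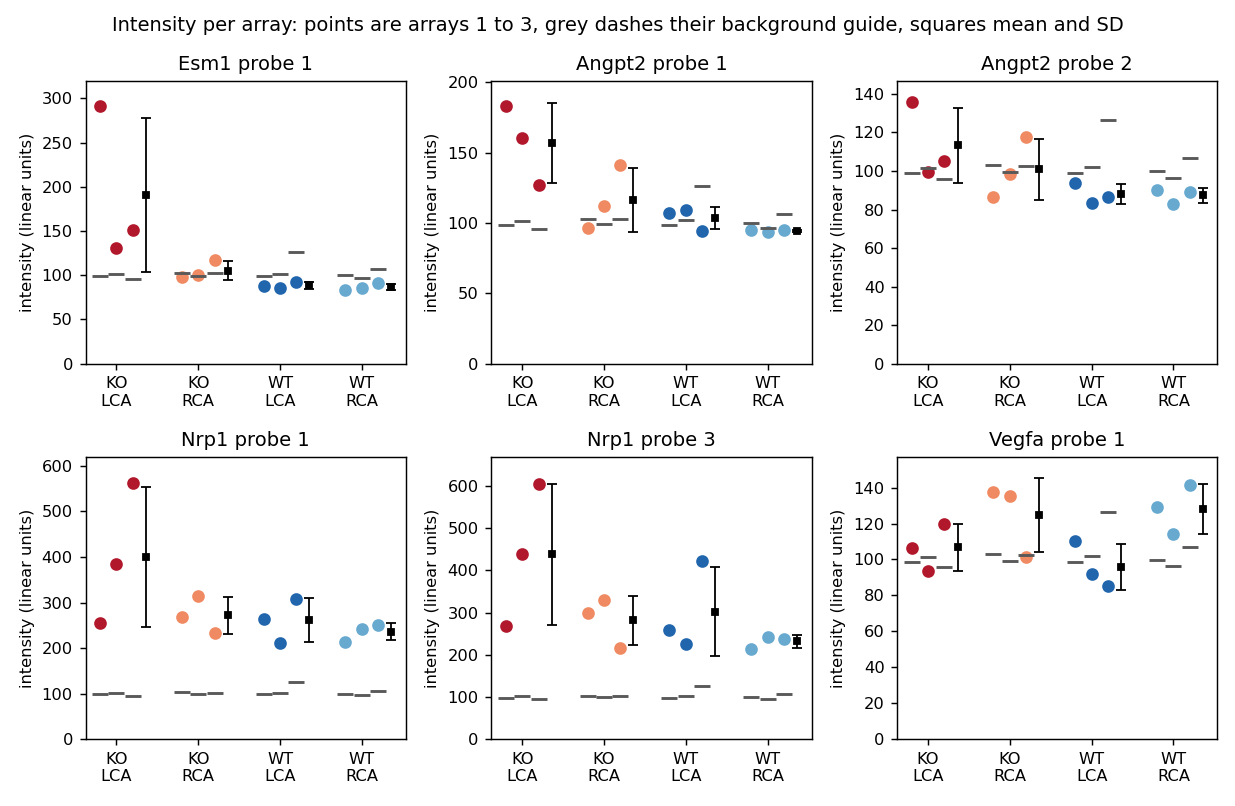
Linear intensity (vertical axes, from 0) of 6 member probes, by group. Points are arrays 1 to 3, grey dashes the background guide of the same array, and black squares with bars the mean and SD. Esm1 reaches 131 to 291 in KO LCA and stays at or under 92.7 on the 6 WT arrays, while the Nrp1 probes lie above the guide on every array, and KO LCA overlaps with both KO RCA and WT LCA.

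Angpt2, the endothelial Tek ligand, had higher mean values in KO arteries with both of its probes, and none of its differences passed. Probe 1 read 183, 160.5 and 127 in KO LCA, 96.6, 112 and 141 in KO RCA, 107, 109.5 and 94.6 in WT LCA, and 94.9, 93.6 and 95.1 in WT RCA. Every KO LCA array lay above every WT LCA array, and every KO RCA array above every WT RCA array, by a small margin, while KO LCA and KO RCA overlapped. The means were 157 ± 28.1 in KO LCA, 117 ± 22.6 in KO RCA, 104 ± 7.97 in WT LCA and 94.5 ± 0.802 in WT RCA.

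The Angpt2 probe 1 genotype difference was 0.58 ± 0.15 in LCA, with adjusted p = 0.415, and 0.28 ± 0.15 in RCA, at least 1.14-fold, with adjusted p = 1.00. Over both sides it was 0.43 ± 0.11 (adjusted p = 0.283). Ligation gave 0.43 ± 0.15 in KO mice (adjusted p = 0.633) and 0.13 ± 0.15 in WT mice (adjusted p = 0.802, at least 1.03-fold). The interaction was 0.30 ± 0.22 (adjusted p = 0.921). Without KO LCA replicate 1 the genotype difference in LCA was 0.47, and without WT LCA replicate 3 it was 0.52. Without KO RCA replicate 3 the difference in RCA was 0.14.

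Probe 2 of Angpt2 read 136, 99.2 and 105 in KO LCA, 86.5, 98.3 and 118 in KO RCA, 93.6, 83.4 and 86.7 in WT LCA, and 90.2, 82.7 and 89.1 in WT RCA. It was at background in both WT groups, and again no KO LCA array overlapped WT LCA. Its genotype difference in LCA was 0.35 ± 0.13 (adjusted p = 0.701), at least 1.04-fold, and over both sides 0.28 ± 0.09 (adjusted p = 0.600). In RCA it was 0.20 ± 0.13 (adjusted p = 1.00), with overlap, and no fold is given because the KO RCA mean does not clear the guide in WT RCA. Without KO LCA replicate 1 the difference in LCA was 0.22. The 2 probes varied together, with Pearson r = 0.87 over the 12 arrays.

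Angpt1, the ligand made by cells around the endothelium, lay near background. Probe 1 read 85.5, 90.9 and 87.0 in KO LCA, 94.9, 84.8 and 95.5 in KO RCA, 84.3, 90.9 and 81.9 in WT LCA, and 98.2, 97.1 and 112 in WT RCA. The WT RCA arrays were above all others, and 2 of them exceeded the guide. Ligation in WT mice gave -0.25 ± 0.07 (adjusted p = 0.672) and in KO mice -0.06 ± 0.07 (adjusted p = 0.879). The genotype difference in RCA was -0.16 ± 0.07 (adjusted p = 1.00). Since WT LCA is at background and the WT RCA mean does not clear the guide there, no fold is given for ligation in WT. Probe 3 was at background in every group, from 78.9 to 98.1, and its KO LCA arrays lay below its KO RCA arrays, with a ligation difference of -0.17 ± 0.08 (adjusted p = 0.680). Probe 2, annotated to a cDNA clone, lay between 79.9 and 90.3. Correlations between the 3 probes were 0.09, 0.46 and 0.01, over the 12 arrays.

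Vegfa, the main ligand of the pathway, was measured by 3 probes. Probe 1 read 107, 93.8 and 119.7 in KO LCA, 138, 135 and 101 in KO RCA, 110.0, 91.7 and 85.3 in WT LCA, and 129, 114 and 142 in WT RCA. All 3 WT LCA arrays lay below all 3 WT RCA arrays, whereas the KO groups overlapped. The means were 107 ± 13.0 in KO LCA, 125 ± 20.4 in KO RCA, 95.7 ± 12.8 in WT LCA and 128 ± 13.9 in WT RCA. Ligation gave -0.22 ± 0.15 in KO mice (adjusted p = 0.742) and -0.43 ± 0.15 in WT mice (adjusted p = 0.691), and -0.32 ± 0.11 over both genotypes (adjusted p = 0.430). Without WT LCA replicate 3 the WT value was -0.35. Genotype differences were 0.16 ± 0.15 in LCA and -0.05 ± 0.15 in RCA.

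Vegfa probes 2 and 3 lay from 85.7 to 106 and from 90.4 to 104, each above the guide on 2 arrays, and did not follow probe 1, with r = 0.18 and 0.29. Probe 2 gave a ligation difference of -0.13 ± 0.07 in KO mice (adjusted p = 0.694), with no overlap, and 0.01 ± 0.07 in WT mice. Probe 3 gave 0.02 ± 0.05 in KO mice, -0.09 ± 0.05 in WT mice and a genotype difference in RCA of -0.11 ± 0.05 (adjusted p = 1.00), with no overlap. Their intensities were so close to the floor that differences of this size are compressed.

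Pgf, the ligand that binds Flt1, read 103, 95.9 and 98.5 in KO LCA, 91.7, 97.1 and 99.4 in KO RCA, 92.0, 85.9 and 85.3 in WT LCA, and 90.5, 94.3 and 95.3 in WT RCA. It exceeded the guide on 2 KO LCA arrays and on no other. The 3 KO LCA arrays lay above the 3 WT LCA arrays, with a genotype difference of 0.18 ± 0.05 (adjusted p = 0.543). In RCA the difference was 0.04 ± 0.05, and ligation gave 0.05 ± 0.05 in KO and -0.09 ± 0.05 in WT mice.

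Among the receptors, Nrp1 was the one with clear signal. Probe 1 read 256, 385 and 561 in KO LCA, 268, 314 and 233 in KO RCA, 263, 212 and 308 in WT LCA, and 215, 243 and 251 in WT RCA. Probe 3 read 269, 439 and 605 in KO LCA, 299.7, 329 and 217 in KO RCA, 258, 226 and 422 in WT LCA, and 215, 243 and 238 in WT RCA. With both probes KO LCA replicates 3 and 2 were the highest arrays, and KO LCA replicate 1 lay among the other groups. The 2 probes varied together, with r = 0.96.

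Nrp1 probe 1 averaged 401 ± 153 in KO LCA, 272 ± 40.7 in KO RCA, 261 ± 48.1 in WT LCA and 236 ± 19.1 in WT RCA. Its ligation difference was 0.50 ± 0.25 in KO mice (adjusted p = 0.684) and 0.13 ± 0.25 in WT mice, and its genotype difference 0.56 ± 0.25 in LCA (adjusted p = 0.792) and 0.20 ± 0.25 in RCA. Probe 3 gave 0.58 ± 0.31 and 0.33 ± 0.31 for ligation in KO and WT mice, and 0.51 ± 0.31 and 0.26 ± 0.31 for genotype in LCA and RCA. The groups overlapped in each of the 4 simple comparisons with both probes. Without KO LCA replicate 3 the ligation difference in KO was 0.22 with probe 1 and 0.31 with probe 3, and without KO LCA replicate 1 it was 0.78 and 0.89. Without WT LCA replicate 3 the ligation difference in WT was 0.00 with probe 1 and 0.06 with probe 3, and the genotype difference in LCA was 0.69 and 0.78. Without KO LCA replicate 3 the genotype difference in LCA was 0.28 with probe 1 and 0.24 with probe 3. Probe 2, annotated to a cDNA clone and not to the RefSeq transcript of the other probes, ran the other way, from 91.0 to 134, with r = -0.33 to probe 1 and -0.41 to probe 3. It gave -0.13 ± 0.12 for ligation in KO and -0.26 ± 0.12 in WT mice.

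Kdr and Flt1, the VEGF receptor tyrosine kinases, were near background throughout with the probes of this array. Whether the probes or the RNA levels account for this was not tested. Kdr probe 1, annotated to a cDNA clone, read 92.9, 93.6 and 99.7 in KO LCA, 94.5, 85.9 and 89.0 in KO RCA, 90.1, 98.6 and 89.1 in WT LCA, and 84.3, 89.9 and 86.4 in WT RCA. Its 4 simple differences ranged from 0.04 to 0.09, each ± 0.06. Probe 2, on the RefSeq transcript, lay between 82.7 and 93.0 and ran opposite to probe 1, with r = -0.67. Flt1 probe 1 read 84.9, 89.3 and 94.4 in KO LCA, 101, 105 and 94.2 in KO RCA, 88.8, 87.7 and 92.9 in WT LCA, and 90.9, 93.0 and 82.9 in WT RCA. The KO RCA arrays lay above the WT RCA arrays, a genotype difference of 0.17 ± 0.07 (adjusted p = 1.00), and ligation in KO gave -0.16 ± 0.07 (adjusted p = 0.638). Flt1 probe 2 lay between 79.7 and 96.3, above the guide on no array, and was lowest in KO LCA at 81.2 ± 1.33, against 92.6 ± 5.52 in KO RCA, 88.6 ± 4.28 in WT LCA and 90.4 ± 1.70 in WT RCA. The Flt1 probes correlated with r = 0.46.

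Apln read 90.9, 94.1 and 93.9 in KO LCA, 86.3, 89.9 and 85.5 in KO RCA, 94.6, 90.0 and 104 in WT LCA, and 87.6, 85.2 and 92.3 in WT RCA. It was above the guide on no array, and its highest value, 104, fell on WT LCA replicate 3, where the guide was 126. Ligation gave 0.09 ± 0.06 in KO mice (adjusted p = 0.730), without overlap, and 0.12 ± 0.06 in WT mice (adjusted p = 0.691), with overlap and with 0.06 when WT LCA replicate 3 was left out. The genotype differences were -0.05 ± 0.06 in LCA and -0.02 ± 0.06 in RCA.

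**Figure D2:**
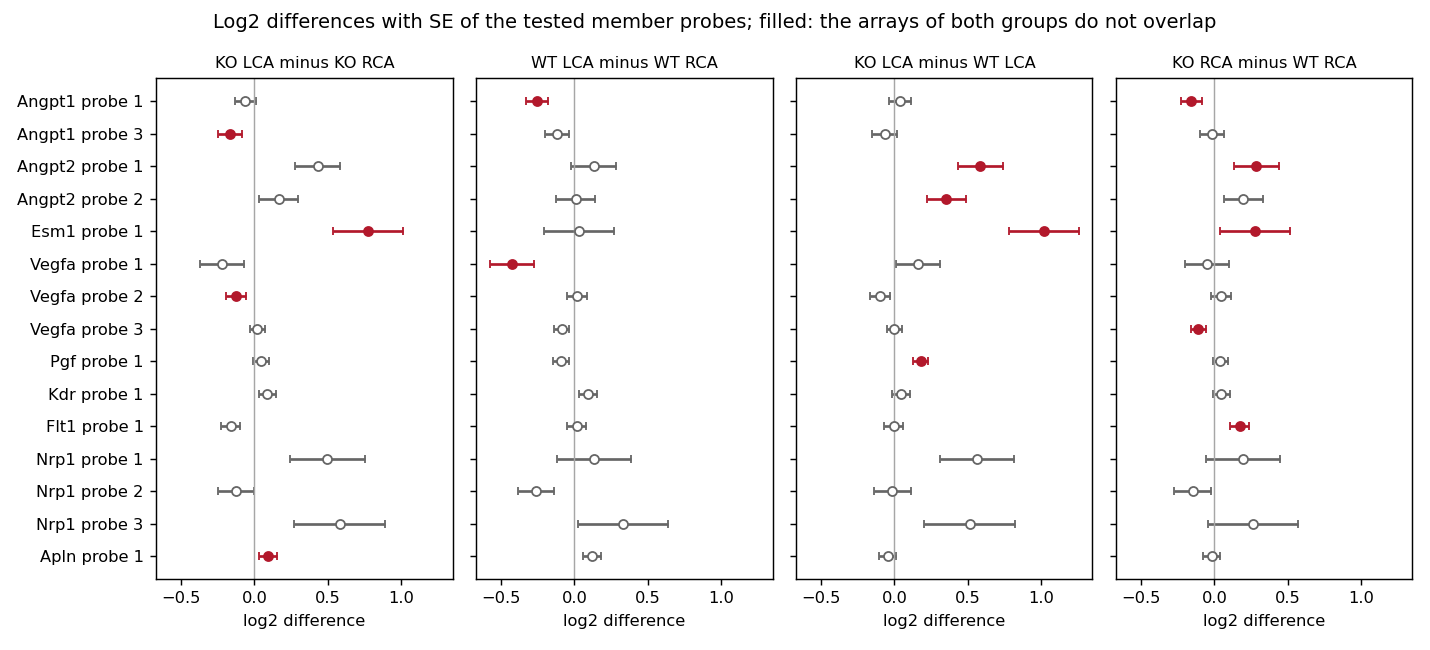
Log2 difference (horizontal axes) with its SE for the 15 tested member probes, in 4 panels for ligation in KO, ligation in WT, genotype in LCA and genotype in RCA. Filled points mark probes whose 2 groups of 3 arrays do not overlap. Esm1 and Angpt2 lie on the higher side in KO LCA against WT LCA, at 1.02 for Esm1 and 0.58 for Angpt2 probe 1, and none of the probes passed adjustment.

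Counted over all comparisons, 0 of the 15 tested member probes passed limma with Benjamini-Hochberg adjustment over all kept probes at 0.05. Of the 32606 probes, 0.0368% (12 probes, 11 higher in KO) passed for genotype in LCA and 0.0951% (31 probes, 28 higher in KO) for genotype over both sides. For ligation in KO, ligation in WT, genotype in RCA, the interaction and ligation over both genotypes, 0% of probes passed. At an unadjusted p under 0.05 the members numbered 3 for ligation in KO (7.62% of all probes), 2 for ligation in WT (6.79%), 4 for genotype in LCA (6.31%) and 1 for genotype in RCA (4.2%). They numbered 0 for the interaction (3.61%), 6 for ligation over both genotypes (10.7%) and 4 for genotype over both sides (6.12%). The 4 probes of genotype in LCA were Esm1, both Angpt2 probes and Pgf, and the same 4 made up genotype over both sides. The 6 of ligation over both genotypes were Angpt1 probes 1 and 3, Angpt2 probe 1, Esm1, Vegfa probe 1 and Apln, with values of -0.16, -0.14, 0.28, 0.40, -0.32 and 0.11.

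Without overlap between the groups, 4 of 15 member probes were higher in KO LCA than in WT LCA (7.56% of all probes) and 0 were lower (5.07%). In RCA, 3 were higher in KO (6.02%) and 2 lower (5.56%). Ligation in KO gave 2 higher (10.3%) and 2 lower (10.2%), and ligation in WT gave 0 higher (4.8%) and 2 lower (6.07%). Several of these probes belong to 1 gene, and the comparisons share groups: KO LCA enters both ligation in KO and genotype in LCA. The median log2 difference of the 15 probes was 0.04 for genotype in LCA, against -0.00 over all probes, 0.04 against -0.00 for genotype in RCA, 0.05 against 0.01 for ligation in KO, and 0.01 against 0.00 for ligation in WT. For the interaction it was 0.14 against -0.00, with 10 of the 15 above 0, and 6 of the 9 genes by their brightest probe. The interaction was also above 0 for 11 of 12 endothelial markers (median 0.25) and 6 of 7 tested fibroblast markers (median 0.78). It was above 0 for 2 of 5 tested macrophage and 0 of 4 tested neutrophil markers. The part of these cell types in the member values was not tested.

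Esm1 and Angpt2 probe 1 varied together over the 12 arrays, with Pearson r = 0.87 and Spearman rho = 0.78. The points share groups as well as arrays. Without KO LCA replicates 1 and 3, the arrays with Esm1 farthest from its median, r was 0.89 and rho 0.65 over 10 arrays. Pgf followed both, with r = 0.73 to Esm1 and 0.69 to Angpt2, in values that lay close to background. The brightest Nrp1 probe had r = 0.30 with Esm1 and 0.23 with Angpt2.

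**Figure D3:**
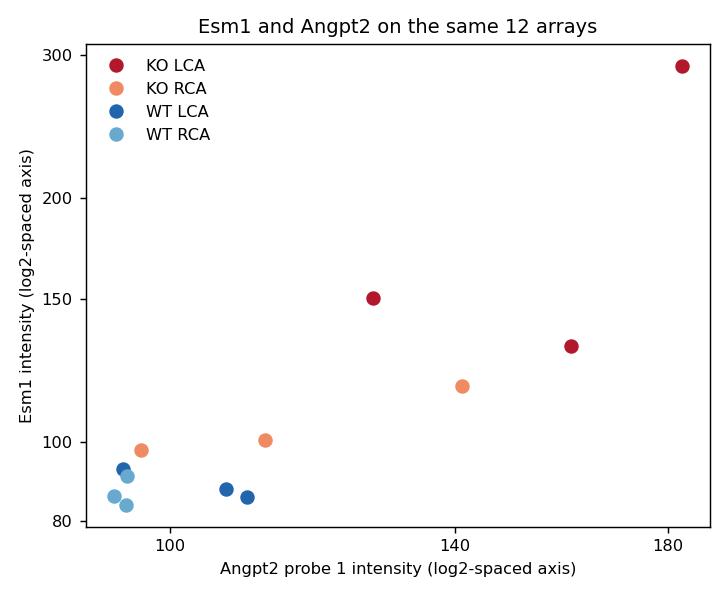
Esm1 intensity (vertical) against Angpt2 probe 1 intensity (horizontal), both on log2-spaced axes, with 1 point per array coloured by group. KO LCA replicate 1 has the highest value of both genes, 291 and 183, and the 6 WT arrays lie in the lower left with Esm1 at or under 92.7.

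Among 6386 genes above the guide on all arrays of a group, those most like each of the 5 measured member probes were found by Pearson correlation over the 12 arrays. For Esm1 they were Saa3, an acute-phase protein (r = 0.96), Akap5, an anchor for protein kinase A (0.95), and Psmd13, a proteasome subunit (0.95). For Angpt2 probe 1 they were Ldb3, a Z-disc protein of muscle (0.98), Ube2d-ps (0.94) and Pamr1 (0.92). Vegfa probe 1 was followed by Uri1 (0.93), Sun1 of the nuclear envelope (0.91) and the riboflavin transporter Slc52a3 (0.91). Nrp1 probe 1 was followed by Trim2 (0.91), the sphingosine-1-phosphate receptor S1pr2 (0.89) and Nsd3 (0.89), and probe 3 by Ufl1 (0.88), Ablim3 (0.85) and Rnmt (0.85). Spearman rho of these pairs ranged from 0.50 for S1pr2 to 0.93 for Sun1 and Ablim3, with 0.75 for Saa3 and 0.71 for Akap5. The highest of so many correlations over 12 arrays is a description of these arrays.

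Genes around the members were followed in 6 lists, each gene by its brightest probe. Over all kept probes, 2 genes of these lists passed, both for genotype over both sides. Chst1, a carbohydrate sulfotransferase of the tip-cell list, averaged 165 ± 29.1 in KO LCA, 171 ± 11.5 in KO RCA, 95.4 ± 2.68 in WT LCA and 107 ± 5.91 in WT RCA. It rose by 0.73 ± 0.08 in KO arteries over both sides (adjusted p = 0.0176), with all 6 KO arrays between 144 and 198 and all 6 WT arrays between 92.6 and 112. Icam1, the leukocyte adhesion molecule from the list of VEGF signalling targets, averaged 575 ± 110.2 in KO LCA, 739.8 ± 90.0 in KO RCA, 418 ± 111 in WT LCA and 271 ± 18.8 in WT RCA. It rose by 0.96 ± 0.14 in KO arteries over both sides (adjusted p = 0.0498), with a difference of 0.47 ± 0.20 in LCA, where the groups overlap, and 1.44 ± 0.20 in RCA, where they do not. The Chst1 call held in 18 of 22 alternative settings and the Icam1 call in 8 of 22.

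In the tip-cell list, 18 of 20 genes were tested, and 1 (Chst1) passed, for genotype over both sides. For genotype in LCA, 11 of 18 were higher in KO and 7 lower, with a median of 0.07, and 7 had an unadjusted p under 0.05, all higher, where 4.4% of all probes were higher and 1.91% lower by the same rule. The 2 with the smallest p were Chst1 (0.78 ± 0.11, adjusted p = 0.0627) and the urokinase receptor Plaur (0.74 ± 0.10, adjusted p = 0.0627). The other 5, named after their values were seen, were the adhesion molecule Mcam (0.69 ± 0.11), the insulin receptor Insr (0.84 ± 0.21), the growth factor Pdgfb (0.58 ± 0.17) and the basement membrane collagens Col4a1 (0.77 ± 0.28) and Col4a2 (0.98 ± 0.32), whose KO LCA and WT LCA arrays do not overlap. For ligation in KO, 13 of 18 were higher, with Insr at 0.82 ± 0.21 and Mcam at 0.41 ± 0.11 (adjusted p = 0.632 for both), and for ligation in WT 10 of 18. Ligation in WT gave -1.12 ± 0.48 for Plvap, which forms the diaphragms of endothelial pores, and -0.21 ± 0.10 for Plaur. Plvap stood at -1.66 ± 0.48 for genotype in RCA, where Chst1 stood at 0.68 ± 0.11, and 12 of 18 were higher. Plvap reached 987 on 1 WT RCA array, against a lowest of 233 in that group, and without WT RCA replicate 1 its values were -0.45 for ligation in WT and -0.99 for genotype in RCA. Dll4, the Notch ligand of tip cells, also named after its values were seen, was near background, with group means of 96.8, 93.0, 97.4 and 95.2 in KO LCA, KO RCA, WT LCA and WT RCA.

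Of 11 tested VEGF family partners, 0 passed in any comparison. The semaphorin Sema3f was lower in ligated arteries without overlap, with ligation differences of -1.13 ± 0.47 in KO mice (adjusted p = 0.645) and -1.81 ± 0.47 in WT mice (adjusted p = 0.648). It averaged 231 ± 29.8 in KO LCA, 561 ± 335 in KO RCA, 275 ± 86.9 in WT LCA and 1031 ± 512 in WT RCA. The other genes with the smallest p were the semaphorin receptor Plxnd1 (-0.40 ± 0.18 for ligation in WT and -0.27 ± 0.18 for genotype in RCA), Sema3g (0.14 ± 0.07 for ligation in KO and 0.12 ± 0.07 for genotype in LCA) and Sema3a (-0.10 ± 0.08 for genotype in LCA). Sema3f stood at -0.89 ± 0.47 for genotype in RCA. Without WT RCA replicate 3 it was -0.55 there and -1.46 for ligation in WT. Without KO RCA replicate 3 it was -0.68 for ligation in KO. Higher in the first-named group were 4 of 11 for ligation in KO, 3 for ligation in WT, 6 for genotype in LCA and 5 for genotype in RCA.

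Of 6 tested genes on the receptor side of the angiopoietins and apelin, 0 passed, and all 6 had a lower value in KO LCA than in KO RCA, none with an unadjusted p under 0.05. Their median for ligation in KO was -0.16, against 0.01 over all probes. Tek, the Tie2 receptor itself, averaged 134 ± 16.7 in KO LCA, 190.5 ± 49.5 in KO RCA, 162 ± 59.9 in WT LCA and 269.6 ± 34.9 in WT RCA. Its ligation differences were -0.48 ± 0.28 in KO mice (adjusted p = 0.708) and -0.80 ± 0.28 in WT mice (adjusted p = 0.691), where the groups do not overlap, and its genotype difference in RCA was -0.53 ± 0.28. Without WT LCA replicate 3 the ligation difference of Tek in WT was -0.49, and without KO RCA replicate 1 that in KO was -0.29. Without KO RCA replicate 3 its genotype difference in RCA was -0.34. Tie1, the related receptor, was at 117 ± 7.38 in KO LCA and 249 ± 154 in WT LCA, a difference of -0.91 ± 0.33 (adjusted p = 0.671) without overlap, and -0.44 without WT LCA replicate 1. Ptprb, the phosphatase that acts on Tek, stood at -0.60 ± 0.32 for ligation in KO and 0.46 ± 0.32 for genotype in RCA, and the adaptor Dok2 at -0.16 ± 0.06 for ligation in WT and 0.07 ± 0.06 for genotype in LCA. Ptprb was -0.35 for ligation in KO without KO LCA replicate 1 and 0.19 for genotype in RCA without WT RCA replicate 1. For ligation in WT 1 of the 6 was higher, for genotype in LCA 3 and for genotype in RCA 2.

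Of 8 tested Notch and stalk genes, 0 passed. After ligation 7 of 8 had a lower value in KO mice, with a median of -0.29, and 7 of 8 in WT mice, with a median of -0.16, against medians of 0.01 and 0.00 over all probes. Notch1 stood at -0.96 ± 0.47 (adjusted p = 0.680) and the Notch target Hey1 at -0.29 ± 0.12 (adjusted p = 0.645) for ligation in KO, and Notch4 at -0.60 ± 0.20 and the ligand Jag1 at -0.86 ± 0.34 for ligation in WT (adjusted p = 0.691 for both). Notch1 was -0.53 without KO RCA replicate 2, and Hey1 was -0.16 without KO LCA replicate 2. Without WT RCA replicate 1, Jag1 was -0.55 and Notch4 -0.42. Between genotypes, Hey2 stood at -0.45 ± 0.19 in LCA and -0.37 ± 0.19 in RCA, and Hey1 at 0.18 ± 0.12 in LCA and 0.31 ± 0.12 in RCA. Hey2 was -0.29 in LCA without WT LCA replicate 3 and -0.18 in RCA without WT RCA replicate 1. Hey1 was 0.07 in LCA without KO LCA replicate 1 and 0.23 in RCA without WT RCA replicate 2. At an unadjusted p under 0.05, 1 of 8 was lower for ligation in KO (3.9% of all probes) and 2 of 8 for ligation in WT (4.07%). Of 12 endothelial markers, 0 passed in limma, while 9 had a lower value in WT LCA than in WT RCA, with a median of -0.40 and 4 at an unadjusted p under 0.05, and 7 had a lower value in KO LCA than in KO RCA, with a median of -0.08. Their part in the Notch and Tek values was not tested.

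Of 15 tested hypoxia response genes, 0 passed. The glucose transporter Slc2a1 was higher in KO arteries without overlap on both sides, at 0.66 ± 0.16 in LCA (adjusted p = 0.327) and 0.70 ± 0.16 in RCA (adjusted p = 0.799). Epas1 (HIF-2 alpha) stood at -0.85 ± 0.31 for ligation in WT and -0.93 ± 0.31 for genotype in RCA, and the histone demethylase Kdm3a at -0.67 ± 0.26 for ligation in WT. Pfkfb3, an activator of glycolysis, stood at -0.60 ± 0.26 for genotype in LCA, and at -0.23 without WT LCA replicate 3. Kdm3a for ligation in WT was -0.33 without WT RCA replicate 1. Ndrg1 stood at 0.39 ± 0.29 and the oxygen sensor Egln1 at -0.10 ± 0.09 for ligation in KO. The list's medians lay between -0.04 and -0.02 in the 4 simple comparisons, with 4 to 7 of 15 on the higher side.

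Of 13 tested VEGF signalling targets, 1 (Icam1) passed, for genotype over both sides. Sele, the endothelial adhesion molecule E-selectin, was higher in KO arteries without overlap, at 1.03 ± 0.35 in LCA (adjusted p = 0.632) and 1.65 ± 0.35 in RCA (adjusted p = 0.718). Icam1 stood at 0.59 ± 0.20 and the MAP kinase phosphatase Dusp5 at 0.14 ± 0.06 for ligation in WT (adjusted p = 0.691 for both), and for ligation in KO Dusp5 stood at 0.13 ± 0.06 and the nuclear receptor Nr4a3 at -0.13 ± 0.05. Higher were 6 of 13 for ligation in KO, 10 for ligation in WT, 9 for genotype in LCA and 10 for genotype in RCA.

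**Figure D4:**
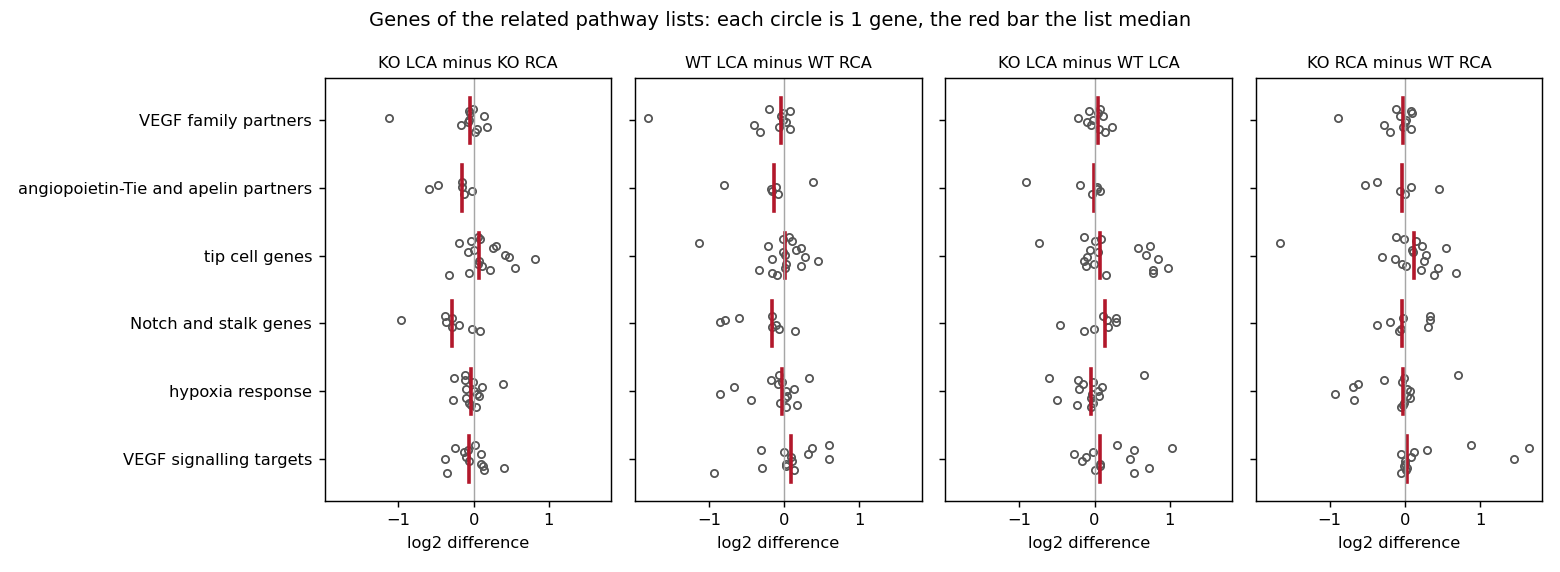
Log2 difference (horizontal axes) of each tested gene in the 6 pathway lists (rows), in 4 panels for ligation in KO, ligation in WT, genotype in LCA and genotype in RCA. Circles are genes and red bars the list medians, which stay between -0.29 and 0.14, while single genes such as Sema3f (-1.81) and Sele (1.65) lie far out.

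The cell types of the samples were checked by marker lists. Of 12 endothelial markers, 12 were above the guide on all arrays in KO LCA, 12 in KO RCA, 9 in WT LCA and 11 in WT RCA, and their summed intensity ranged from 3929 to 6517, 4615 to 5570, 3928 to 4146 and 4885 to 5598 in these groups. Here and below, the WT LCA counts include replicate 3, where the guide was 126 and 11.7% of all probes exceeded it. They are therefore not directly comparable with the counts of the other groups. Of 8 smooth muscle markers, 4 were above the guide on all arrays in KO LCA, 1 in KO RCA, 0 in WT LCA and 1 in WT RCA. Their summed intensity was 1735 to 2231 in KO LCA, 1057 to 1909 in KO RCA, 768 to 1228 in WT LCA and 769 to 968 in WT RCA. It moved mostly with Acta2, at 999 ± 89.6 in KO LCA, 748 ± 438 in KO RCA, 287 ± 213 in WT LCA and 188 ± 81.4 in WT RCA. The defining muscle myosin Myh11 was near background in every group, with means of 102 in KO LCA, 103 in KO RCA, 92.9 in WT LCA and 98.1 in WT RCA.

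Of 7 tested fibroblast markers, 5 were higher and 2 lower for genotype in LCA and for ligation in KO, and of 5 tested macrophage markers 3 were higher and 2 lower in both comparisons, none of them passing. Of 7 fibroblast markers, 5 were above the guide on all arrays in KO LCA, 3 in KO RCA, 2 in WT LCA and 4 in WT RCA, with summed intensities of 1198 to 1713, 1172 to 1490, 963 to 1422 and 1331 to 2449. Named after their values were seen, the matrix gene Dpt averaged 236 ± 79.5 in KO LCA, 112 ± 33.7 in KO RCA, 106 ± 18.4 in WT LCA and 95.2 ± 1.30 in WT RCA. The scavenger receptor Cd163, 1 of 6 macrophage markers with a probe, averaged 148 ± 14.4 in KO LCA, 88.5 ± 7.83 in KO RCA, 88.6 ± 8.07 in WT LCA and 94.4 ± 9.92 in WT RCA, and the list's summed intensity was 614 to 834, 568 to 641, 552 to 819 and 566 to 577. Summed neutrophil markers ranged from 537 to 683 in KO LCA, 455 to 1048 in KO RCA, 495 to 1486 in WT LCA and 477 to 686 in WT RCA. In KO LCA, 1 of 7 pericyte, 0 of 5 skeletal muscle and 1 of 4 nerve markers were above the guide on all arrays, the 2 being Cspg4 and Uchl1. Summed adipocyte markers ranged from 695 to 859 in KO LCA and from 471 to 572 in KO RCA. In WT they ranged from 485 to 657 in LCA and from 522 to 685 in RCA. For genotype in LCA, 3 of 4 tested adipocyte markers were higher in KO and 1 lower. Of 12 endothelial markers, 8 were higher in KO and 4 lower in LCA, with a median of 0.15. In limma 2 of them were higher at an unadjusted p under 0.05 (4.4% of all probes) and 0 lower (1.91%). In RCA 6 of the 12 were higher in KO and 6 lower. Red cell and platelet markers were higher in KO for 6 of 6 genes in RCA and 5 of 6 in LCA. On each side 1 of them had an unadjusted p under 0.05 in limma. Of 7 tested smooth muscle markers, 6 were higher in KO and 1 lower on each side, with 2 higher at an unadjusted p under 0.05. By that rule 4.4% of all probes were higher in LCA and 2.3% in RCA. Lymphatic markers were higher for 1 of 5 in RCA and 2 of 5 in LCA. None of the markers in these lists passed in these comparisons. The part of all these cell types in the member values was not tested.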

How the data were processed

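RNA samples from mouse carotid arteries were labelled with biotin and hybridised to 12 one-colour Illumina arrays, per the labels' protocols. Each deposited value is a linear intensity of 1 probe. All arrays have nearly the same distribution of values, as quantile normalization by the authors would leave it. How the authors corrected for background, and with which software they normalized, was not given in the sources used. No label names a chip or slide, so none could be entered as a block, and precision is limited by the 12 arrays. The platform annotation gives 1 symbol for 34885 probes, several for 18 and none for 10378.

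All 12 arrays entered 1 limma fit (version 3.58.1, R 4.3.3) of log2 intensity on the 4 group means, with eBayes, two-sided p-values and Benjamini-Hochberg adjustment over the 32606 kept probes of each comparison, at a threshold of 0.05. The fit was tested on simulated data with known changes. The members, the pathway and marker lists and the tests were chosen with earlier results of these data known. Pathway genes are named where they passed in any of the 7 comparisons, or as the 2 with the smallest p in each of the 4 simple ones, and genes named outside this rule are marked. Deviations of LCA and RCA arrays from their group means had correlations between -0.02 and 0.09 over the 6 same-numbered pairs. In WT these were 0.04, 0.05 and 0.09, above all differently numbered pairs, which lay between -0.06 and 0.02. In KO they were -0.02, -0.02 and 0.04, within the range of differently numbered pairs, -0.06 to 0.08. With 3 arrays per group, such values cannot decide whether a number stands for 1 mouse. Alternatives changed the following: the filter, the probe rule, the replicate block, array weights, the variance prior, the groups fitted, the log scale (a pseudocount of 16, or the lowest value subtracted and 16 added, which changes both together), the normalization, the guide, and leaving out each array.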

Additional observations from a re-analysis of the deposited data

How the results depend on the processing

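Of 24 alternative settings, 24 could be run for ligation in KO and in WT, 22 for genotype over both sides and 23 for the other 4 comparisons, and 0 member probes passed by limma in any of them. With 1 array left out, the member probes with an unadjusted p under 0.05 numbered 3 to 5 for genotype in LCA, 1 to 4 for ligation in KO, 2 to 3 for ligation in WT, 0 to 4 for genotype in RCA, 0 to 2 for the interaction, 3 to 6 for ligation over both genotypes and 4 to 6 for genotype over both sides. The labels do not say whether the replicate numbers pair the samples. With genotype and number as a replicate block, fixed or random, 0 member probes passed, and the random block's correlation was 0.066. The Esm1 genotype difference in LCA ranged from 0.67 to 1.24 and its ligation difference in KO from 0.42 to 1.00 with 1 array left out, and with the lowest value subtracted and 16 added they were 1.89 (adjusted p = 0.129) and 1.30 (adjusted p = 0.610). Of 50 named pathway gene differences, 29 were smaller by over 1.5 times without 1 of the arrays. The counts over all probes were less stable. For genotype in LCA, 12 probes passed, against 1 without the filter, 1 with 1 probe per gene, 4 with array weights, 0 with trend and robust, 0 with only the 2 groups fitted, and 0 to 26 with 1 array left out. For genotype over both sides, 31 passed, against 17 with 1 probe per gene, 1 with trend and robust, and 2 to 44 with 1 array left out. With 1 array left out, up to 9 probes passed for ligation in WT, 6 for genotype in RCA, 5 for ligation in KO, 4 for the interaction and 3 for ligation over both genotypes, where 0 passed with all arrays, and 1 passed for ligation in WT with array weights. Chst1 for genotype over both sides had adjusted p between 0.00792 and 0.115 over its settings, and Icam1 between 0.0276 and 0.229. Values near the floor of 72.4 have compressed differences, and the cause of the changes in counts was not tested.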
